A study of Mus musculus with 9 samples.

Results

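The 9 genes described here encode chemokines, the small secreted or membrane-bound proteins that steer migrating leukocytes. They are Cxcl1, Cxcl2, Cxcl5, Cxcl10, Cxcl12 and Cxcl16 of the CXC class, Cx3cl1, which is the CX3C chemokine fractalkine, and Ccl2 and Ccl7 of the CC class. They were taken by gene symbol from 22180 genes measured on the arrays, and each of the 9 had 1 probe set. Olfactory receptor genes served as a reference for weak signal. The 95th percentile of the means of 1088 such genes was 4.71 on the log2 scale, and 8 of the 9 chemokines had a mean above it. The exception was Cxcl12, with a mean of 4.40.

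The cells were NIH3T3 mouse fibroblasts that carry a piece of human MLKL joined to Fv domains (hMLKL1-181-2Fv), and this fusion was present in every group, control included. MLKL is known as the protein that breaches the plasma membrane during necroptosis. The ligand B/B draws Fv domains together. Control cells (3 arrays) had a control treatment that the labels describe no further. Cells of the B/B 1 h group (3 arrays) had 50 nM B/B for 1 h and were sorted as annexin V-positive (AnnV+), that is, with phosphatidylserine on their surface. Cells of the washout group (3 arrays) had the same B/B treatment and sort, followed by 6 h of washout, given as 3000 nM of a compound that is not named. All cells came from 1 engineered line. Whether it is a clone, how the fusion was expressed, and whether control cells were sorted are not given in the sources used here, so that B/B, sorting and time in culture cannot be told apart wherever control is one of the groups. Between B/B 1 h and washout cells, the washout, its compound and the 6 h of further time cannot be told apart either. In such bulk samples a lower level can come from fewer expressing cells or from less RNA per cell, which cannot be told apart. Nothing in the labels says that the arrays of a group came from separate cultures, and p-values then measure the spread between these arrays. Replicate numbers follow the order of the deposited samples and only name an array.

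Chemokines carry conserved cysteines near the amino terminus whose spacing names the class, and they act through G protein-coupled receptors on the attracted cell. Fibroblasts are a known source of neutrophil- and monocyte-attracting chemokines after injury. Transcription of several of these genes is driven by NF-kB, and that of Cxcl10 also by interferon regulatory factors. Their transcripts are mostly short-lived, since proteins such as tristetraprolin (Zfp36) and Regnase-1 (Zc3h12a) bind and destroy them.

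Of fibroblast marker genes, 11 of 14 lay above the olfactory reference, among them Vim, Fn1, Col1a1 and Thy1, while Fap, Postn and Lum lay below it. Array medians over all genes were 5.14 to 5.23 (log2). The correlation over genes, which are no replicates, was 0.998 to 0.999 within groups and 0.990 to 0.998 between them. Precision is limited by having 3 arrays per group.

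Cxcl1 and Cxcl10 rose about 8-fold within 1 h of B/B and were back near control after washout, whereas Ccl2, Ccl7 and Cxcl5 fell below control only in the washout group among the groups measured. Cxcl2 rose less and remained above control, Cx3cl1 declined slightly, and Cxcl12 and Cxcl16 showed no difference past the threshold. Levels differed among the 3 groups for 7 of the 9 genes, against 29.5% of all genes tested (F-test of limma, with p adjusted by Benjamini-Hochberg and called under 0.05). The adjusted p of the other two was 0.252 for Cxcl12 and 0.819 for Cxcl16.

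In B/B 1 h cells against control, 4 of the 9 chemokines passed the limma threshold as higher and 0 as lower, where 1.01% of all genes were higher and 1.88% lower. With array medians centred, the higher share of all called genes at 1 h was 16.7% in place of 34.9%. In 5 of the 9 genes the arrays of both groups did not overlap, against 21.3% of all genes. The median log2 difference was 0.08 over the 9 genes and 0.00 over all genes.

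In washout cells against control, 1 chemokine was higher and 4 were lower, where 14.5% of all genes were higher and 11.7% lower. Groups did not overlap in 6 of the 9, against 38% of all genes, and the median difference was -0.24 over the 9 and 0.00 over all genes. In washout against B/B 1 h cells, 0 chemokines were higher and 7 lower, where 16.6% of all genes were higher and 12% lower. Here 8 of the 9 did not overlap, against 39.6% of all genes, and the median was -0.70 over the 9 and -0.02 over all genes. The 3 comparisons share arrays in pairs and are not independent of each other.

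**Figure D1:**
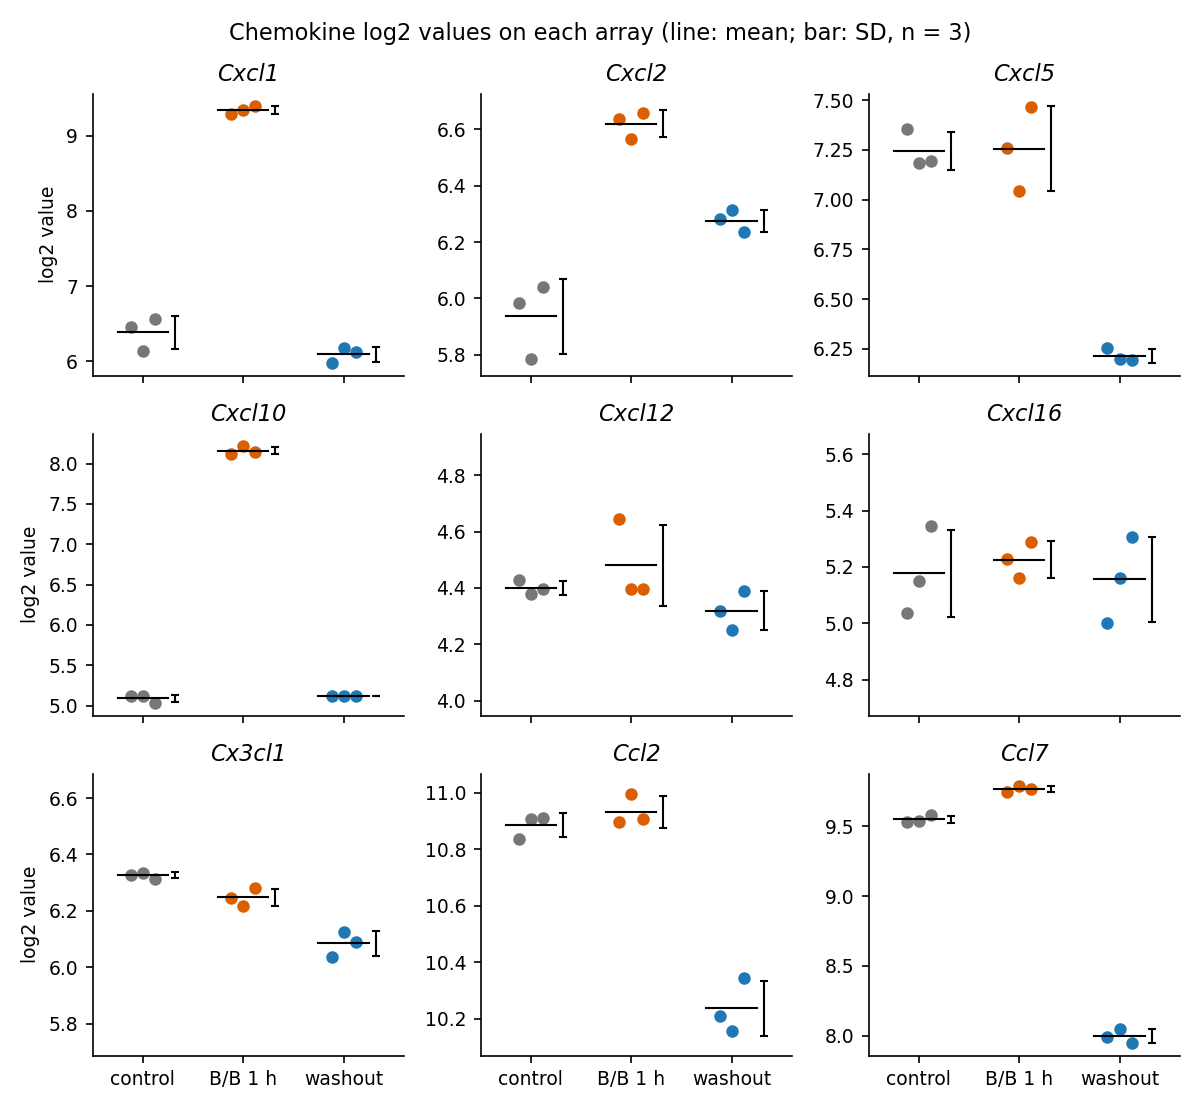
Log2 value of each chemokine on every array, by group (control, grey; B/B 1 h, orange; washout, blue), with the group mean as a line and the SD (n = 3) as a bar; each panel has its own log2 axis of at least 1 unit. Cxcl1 and Cxcl10 stand high in the B/B 1 h arrays alone, Ccl2, Ccl7 and Cxcl5 are low in the washout arrays alone, and the groups of Cxcl16 overlap.

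Cxcl1, Cxcl2 and Cxcl5 encode the neutrophil-attracting ligands of Cxcr2. Cxcl1 read 6.46, 6.14 and 6.56 on the control arrays, 9.29, 9.34 and 9.39 on the B/B 1 h arrays and 5.98, 6.17 and 6.13 on the washout arrays (log2). All B/B 1 h arrays lay above all others, and washout and control arrays overlapped. The rise at 1 h was 2.95 ± 0.10 (log2 difference, SE), or 7.75-fold, with an adjusted p of 6.59e-07 in limma. Between 1 h and washout Cxcl1 fell by 3.24 ± 0.10 (log2, SE; limma adjusted p 4.31e-08). Washout minus control was -0.29, with a 95% interval from -0.52 to -0.07 and a limma adjusted p of 0.0618. That last value sat close to the threshold. It passed with quantile normalization (0.0207), with the lowest genes left out (0.0444), with a variance trend (0.0381) and without control replicate 2 (0.00273, difference -0.42).

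Cxcl2 also rose at 1 h. It read 5.98, 5.79 and 6.04 in control, 6.64, 6.57 and 6.66 at 1 h and 6.28, 6.31 and 6.24 after washout (log2). The 3 groups did not overlap, and the washout arrays lay between the others. The rise at 1 h was 0.68 ± 0.066 (log2, SE), or 1.61-fold (limma adjusted p 5.13e-04). Part of it was gone after washout, with a fall of 0.34 from B/B 1 h (log2; limma adjusted p 0.00291), and the level still exceeded control by 0.34 (limma adjusted p 0.00343). Of the 9 chemokines, Cxcl2 was the 1 called higher in washout than in control.

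Cxcl5 did not follow its paralogs. The control arrays read 7.36, 7.18 and 7.19, the B/B 1 h arrays 7.26, 7.04 and 7.47 and the washout arrays 6.26, 6.20 and 6.19 (log2). Control and B/B 1 h arrays overlapped, and every washout array lay below both. At 1 h the difference was 0.01, with a 95% interval from -0.20 to 0.23, and its sign turned with array medians centred. After washout Cxcl5 fell by 1.03 ± 0.096 (log2, SE) below control, to 0.490 times its level, with a limma adjusted p of 3.73e-05.

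Cxcl10 encodes the interferon-inducible ligand of Cxcr3, which attracts activated T cells and natural killer cells. Its values were 5.11, 5.12 and 5.04 in control, 8.12, 8.21 and 8.15 at 1 h and 5.12, 5.12 and 5.12 after washout (log2). The B/B 1 h arrays lay far above the rest, and the washout arrays all lay above control, the lowest of them by less than the rounding of these values. The rise was 3.07 ± 0.043 (log2, SE), or 8.40-fold, with a limma adjusted p of 8.82e-10. The means in control and after washout, 5.09 and 5.12, lay not far above the olfactory reference of 4.71, so the fold starts from weak signal. Washout against B/B 1 h gave a fall of 3.04 ± 0.043 (log2, SE; limma adjusted p 3.41e-10). Washout minus control was 0.03, with a 95% interval from -0.07 to 0.13 (limma adjusted p 0.692).

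The 3 chemokines with the largest rise at 1 h are shown with the 250 bases upstream of their annotated starts, so that their promoters can be read side by side. The promoter table, from RefSeq on GRCm38.p6, matched 5 of the 9 genes by symbol (Cxcl1, Cxcl2, Cxcl10, Cxcl12 and Cx3cl1). The windows are chr5:90890995-90891244 (plus strand) for Cxcl1, chr5:90903649-90903898 (plus strand) for Cxcl2 and chr5:92348890-92349139 (minus strand) for Cxcl10. Each reads 5′ to 3′ on the strand of its gene. Capitals mark matches, on either strand, to the NF-kB consensus of 10 letters, to GAAANNGAA, which is most of the interferon-stimulated response element, and to the AP-1 element TGANTCA.
Cxcl1: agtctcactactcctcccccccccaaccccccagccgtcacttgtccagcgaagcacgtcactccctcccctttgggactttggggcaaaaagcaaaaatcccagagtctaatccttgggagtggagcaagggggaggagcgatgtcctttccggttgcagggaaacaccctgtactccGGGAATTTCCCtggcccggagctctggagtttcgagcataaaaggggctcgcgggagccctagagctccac
Cxcl2: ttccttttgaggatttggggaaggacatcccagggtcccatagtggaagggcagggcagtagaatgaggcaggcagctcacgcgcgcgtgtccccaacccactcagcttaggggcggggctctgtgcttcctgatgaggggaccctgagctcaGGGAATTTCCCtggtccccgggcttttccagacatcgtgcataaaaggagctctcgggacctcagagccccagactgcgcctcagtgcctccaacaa
Cxcl10: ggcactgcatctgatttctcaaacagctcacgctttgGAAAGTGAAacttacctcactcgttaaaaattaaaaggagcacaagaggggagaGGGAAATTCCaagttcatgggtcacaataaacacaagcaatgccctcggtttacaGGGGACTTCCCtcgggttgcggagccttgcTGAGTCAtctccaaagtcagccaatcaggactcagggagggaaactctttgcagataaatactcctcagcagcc
The Cxcl1 window holds the NF-kB consensus from 71 to 62 bases before the start and again, on the other strand and shifted by 1 base, from 70 to 61. The Cxcl2 window has the same overlapping pair from 97 to 87 bases before the start. The longest run of letters shared by these 2 windows is 14 bases long, GGGAATTTCCCTGG, and it contains that pair. The Cxcl10 window has an NF-kB match from 159 to 150 bases before the start and an overlapping group of matches from 104 to 94. It also holds GAAAGTGAA from 213 to 205 and the AP-1 element from 74 to 68 bases before the start. Among 32851 promoter windows of this length in the table, 7.25% held the NF-kB consensus, 7.13% GAAANNGAA and 6.75% the AP-1 element. The windows of Cxcl12 and Cx3cl1 held none of these letters. A match is a description of the letters, and binding was not measured.

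Ccl2 and Ccl7 encode ligands of Ccr2 that draw monocytes from the blood. Ccl2 read 10.84, 10.91 and 10.91 in control, 10.90, 11.00 and 10.91 at 1 h and 10.21, 10.15 and 10.34 after washout (log2). Control and B/B 1 h arrays overlapped, and the washout arrays were lower than either. The difference at 1 h was 0.05, with a 95% interval from -0.08 to 0.18. In washout cells Ccl2 fell by 0.65 ± 0.058 (log2, SE) below control, to 0.638 times its level, with a limma adjusted p of 2.80e-05. A rise at 1 h of the size seen for Cxcl1 or Cxcl2 thus lies outside the interval for Ccl2.

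Ccl7 fell the furthest below control of the 9 chemokines. The arrays read 9.53, 9.54 and 9.58 in control, 9.75, 9.79 and 9.77 at 1 h and 7.99, 8.05 and 7.95 after washout (log2). No 2 groups overlapped. Washout cells lay below control by a fall of 1.55 ± 0.042 (log2, SE), to 0.340 times its level, with a limma adjusted p of 2.30e-08. The small rise at 1 h, 0.22 ± 0.042 (log2, SE) or 1.16-fold, had a limma adjusted p of 0.0277. That call was lost with array medians centred (0.0949), with only 2 groups fitted (0.0595), without any 1 control or B/B 1 h array (0.0552 to 0.0876) and without washout replicate 1 (0.0505).

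Cxcl16 and Cx3cl1 encode the chemokines that are made as transmembrane proteins and released by shedding, and they bind Cxcr6 and Cx3cr1. Cxcl16 read 5.04, 5.15 and 5.34 in control, 5.23, 5.16 and 5.29 at 1 h and 5.0, 5.16 and 5.31 after washout (log2), with all groups overlapping. Its group means of 5.16 to 5.23 lay not far above the olfactory reference of 4.71, so the signal was weak. The differences of Cxcl16 from control were 0.05 at 1 h (95% interval -0.16 to 0.26) and -0.02 after washout (-0.23 to 0.19). Both changed sign under some alternatives. Cx3cl1 read 6.33, 6.34 and 6.31, then 6.25, 6.22 and 6.28, then 6.04, 6.13 and 6.09 (log2), with no overlap between any 2 groups. At 1 h its difference was -0.08 (95% interval -0.17 to 0.01; limma adjusted p 0.348). After washout Cx3cl1 fell by 0.24 ± 0.041 (log2, SE) below control (limma adjusted p 0.00163). Against B/B 1 h it fell by 0.16 (limma adjusted p 0.014), a call that was lost with array medians centred (0.0835) and without washout replicate 1 (0.0557).

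Cxcl12, the ligand of Cxcr4 and Ackr3 that retains stem cells and lymphocytes in tissue, was the 1 chemokine with a mean below the olfactory reference. It read 4.43, 4.38 and 4.40 in control, 4.64, 4.40 and 4.40 at 1 h and 4.32, 4.25 and 4.39 after washout (log2). B/B 1 h replicate 1 was the highest array, and the other two of that group overlapped control. The difference from control was 0.08 at 1 h (95% interval -0.08 to 0.24) and -0.08 after washout (-0.24 to 0.08). Without B/B 1 h replicate 1 the first of these was -0.004. Washout arrays all lay below the B/B 1 h arrays, by -0.16 on average (limma adjusted p 0.128).

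**Figure D2:**
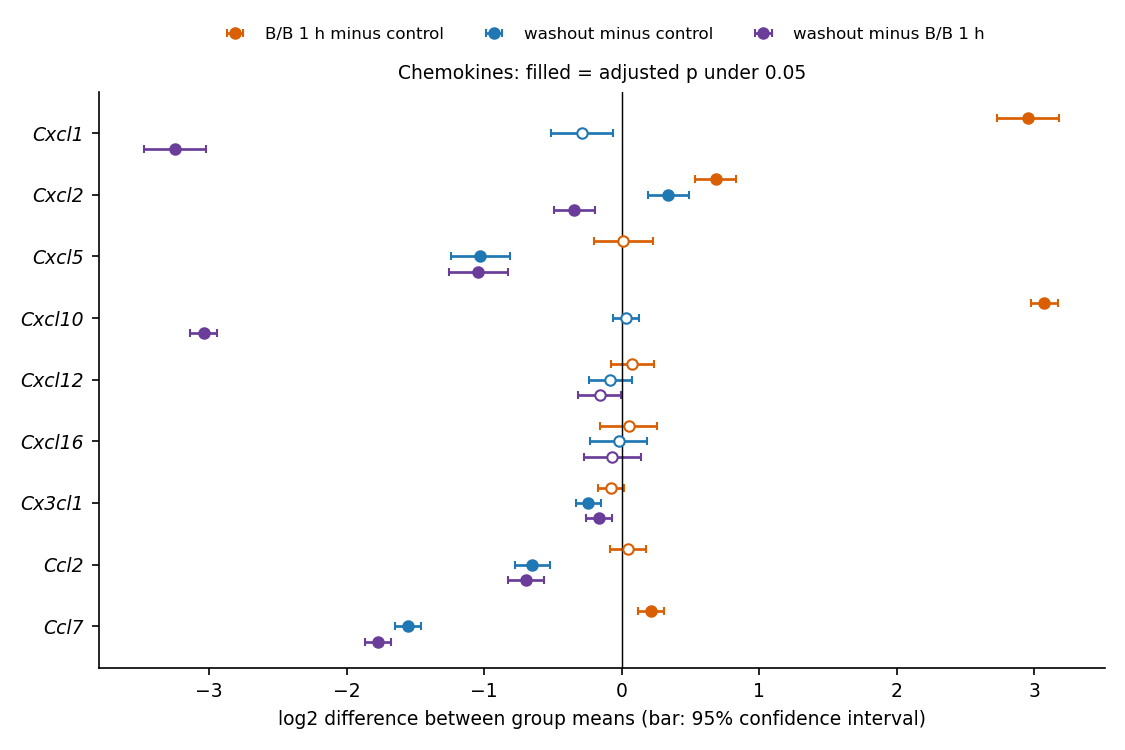
Log2 difference between group means for each chemokine in the 3 comparisons (B/B 1 h minus control, orange; washout minus control, blue; washout minus B/B 1 h, purple), with 95% confidence intervals from limma as bars and filled points at an adjusted p under 0.05. Cxcl1 and Cxcl10 show large opposite differences at 1 h and between 1 h and washout, and Ccl7 has the lowest value against control, -1.55.

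Most of these genes sit in clusters of related genes, and the neighbours of a member did not share its pattern throughout. In annotated order the first cluster runs Cxcl5, Ppbp, Pf4, Cxcl3, Cxcl15, Cxcl1, Cxcl2. Cxcl1 and Cxcl2 at its end rose at 1 h. Ppbp, a platelet chemokine that also acts on Cxcr2, fell by 0.46 ± 0.050 at 1 h and fell by 1.25 ± 0.050 after washout (log2 against control, SE; limma adjusted p 0.0012 and 2.6e-07). Ppbp read 7.54, 7.53 and 7.61 in control, 7.05, 7.12 and 7.12 at 1 h and 6.39, 6.30 and 6.24 after washout, so that its groups did not overlap. Cxcl5 and Ppbp, which adjoin, were both lower after washout. Pf4, Cxcl3 and Cxcl15 were below the olfactory reference, with means from 2.87 to 3.49 in every group.

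Cxcl10 lies between Art3 and Cxcl11, with Cxcl9 beyond Art3. None of these 3 neighbours reached the olfactory reference, and their differences at 1 h, -0.06 for Art3, 0.16 for Cxcl9 and 0.20 for Cxcl11, did not pass the limma threshold. Cxcl11 fell by 0.23 between 1 h and washout (limma adjusted p 0.0476), a value close to the threshold, and the arrays of the groups overlapped. Ccl2 and Ccl7 head a cluster that continues with Ccl11, Ccl12 and Ccl8. Those neighbours too lay below the reference, with group means of 4.41 to 4.43 for the eosinophil chemokine Ccl11, and none was called against control.

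**Figure D3:**
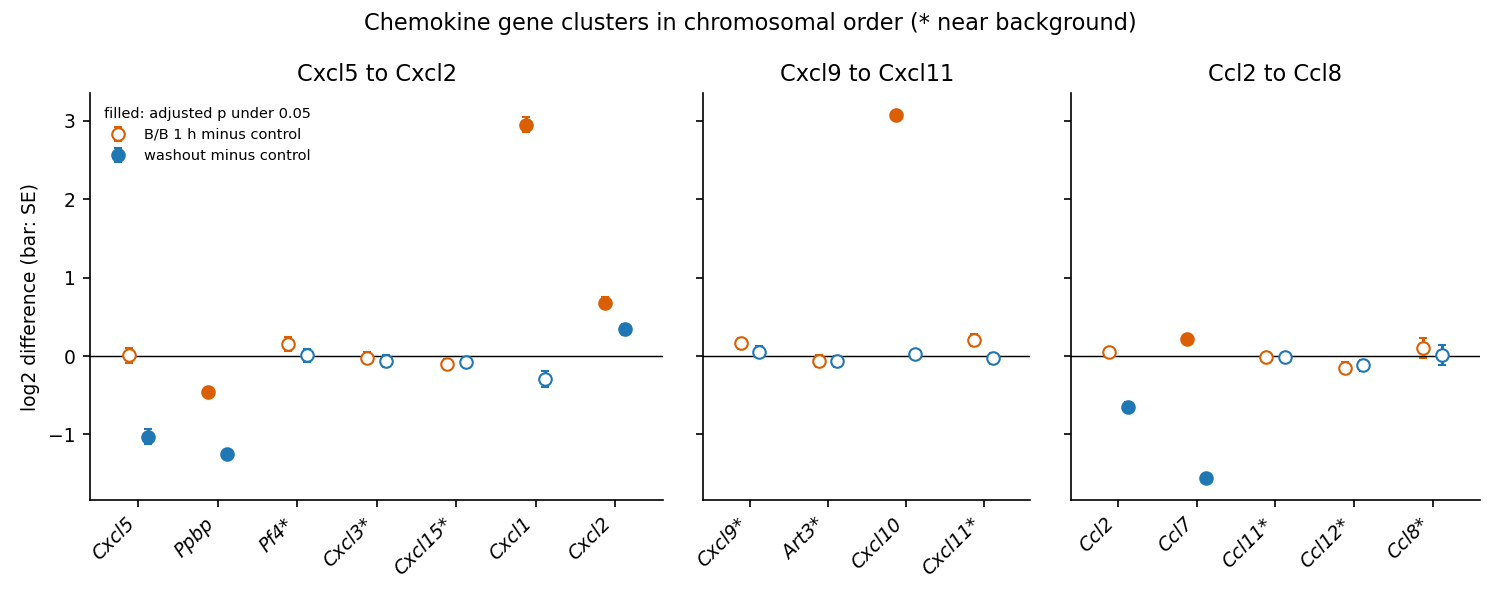
Log2 difference from control (SE as bars) of the genes in 3 chemokine clusters, placed in chromosomal order but not to scale, for B/B 1 h (orange) and washout (blue); filled points have an adjusted p under 0.05 and an asterisk marks genes below the olfactory reference. Cxcl1, Cxcl2 and Cxcl10 are the high points at 1 h, and Cxcl5, Ppbp, Ccl2 and Ccl7 are low after washout.

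Beyond the 9, 27 other chemokine genes were measured, and 5 of them lay above the olfactory reference (Ppbp, Ccl9, Ccl17, Ccl25 and Ccl28). At 1 h 0 were higher and 1 lower, after washout against control 1 was higher and 2 lower, and against B/B 1 h 1 was higher and 3 lower (limma). Over all genes, 1.01% were higher and 1.88% lower at 1 h, and 14.5% and 11.7% after washout against control. Against B/B 1 h these shares were 16.6% and 12%, and they also stand beside the counts of each list below. The medians of the 27 were 0.06, 0.01 and -0.05 (log2). Ccl9, a CC chemokine that acts on Ccr1, fell by 1.2 ± 0.064 after washout (log2 against control, SE; limma adjusted p 1.47e-06). Its arrays read 8.20, 8.23 and 8.24 in control and 6.99, 6.97 and 7.11 after washout. Ccl25, a thymic and intestinal chemokine that acts on Ccr9, rose by 0.36 ± 0.043 (limma adjusted p 1.89e-04).

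Of 22 chemokine receptor genes, 8 lay above the reference, and 1 was higher and 0 lower at 1 h, 2 and 0 after washout against control, and 2 and 1 against B/B 1 h (limma). Cxcr2, the receptor of Cxcl1, Cxcl2 and Cxcl5, read 5.18, 5.32 and 5.23 in control, 5.40, 5.21 and 5.40 at 1 h and 5.87, 5.88 and 5.87 after washout (log2). It rose by 0.64 ± 0.059 after washout (log2 against control, SE; limma adjusted p 3.85e-05), with no overlap. Ccr1 rose by 0.48 but lay below the reference, at 3.65 after washout. Ackr3, which takes up and destroys Cxcl12, rose by 0.22 ± 0.046 at 1 h (limma adjusted p 0.0377). The Ackr3 call was lost with array medians centred (0.0918), without any 1 control or B/B 1 h array (0.0658 to 0.11) and without washout replicate 1 (0.0528) or 3 (0.0562). Its fall of 0.16 from 1 h to washout was likewise lost with array medians centred, without any 1 B/B 1 h array, without washout replicate 2 and with only 2 groups fitted (highest adjusted p 0.0902).

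Genes for shedding and cleavage of chemokines, such as Adam10 and Adam17, which release Cx3cl1 and Cxcl16 from the membrane, showed no call at 1 h among the 10 measured (limma; 3 at an unadjusted p under 0.05). The share of all genes at that unadjusted p is not given here. After washout 2 were higher and 4 lower against control, and 1 was higher and 4 lower against B/B 1 h. Over all genes the shares were 14.5% and 11.7% against control, and 16.6% and 12% against B/B 1 h. Adam10 fell by 0.26 ± 0.038 and Mmp14, a membrane-bound metalloproteinase, fell by 0.44 ± 0.051 (log2 against control, SE). Mmp9, a gelatinase, rose by 0.35 ± 0.10 (limma adjusted p 0.0295), which was lost without control replicate 2 or 3, without washout replicate 2 or 3 and with only 2 groups fitted (highest adjusted p 0.109). Adam17 rose by 0.41 and Mmp2 fell by 0.24 between 1 h and washout. The median of the list against control was 0.00 at 1 h and -0.03 after washout.

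Among 14 measured NF-kB genes, 3 were higher and 0 lower at 1 h (limma; 11 at an unadjusted p under 0.05, and 5 called with a variance trend). Over all genes 1.01% were higher and 1.88% lower, and the share at an unadjusted p under 0.05 is not given here. The 3 higher genes are ones that NF-kB itself induces, namely Tnfaip3 at 2.10 ± 0.079, Nfkbiz at 1.31 ± 0.062 and Nfkbia at 1.03 ± 0.041 (log2, SE). Tnfaip3 and Nfkbia encode feedback inhibitors of NF-kB. Nfkbia read 9.87, 9.92 and 9.92 in control, 10.89, 10.96 and 10.94 at 1 h and 8.80, 8.85 and 8.84 after washout. Like Ccl7 it thus went above and then below control, and it fell by 1.07 ± 0.041 after washout (limma adjusted p 2.08e-07). In washout cells 5 of the list were higher than control and 4 lower, with Ikbkg, the scaffold of the IkB kinase, at 0.64 and Nfkb2, a precursor of p52, at 0.54. Against B/B 1 h 7 were higher and 5 lower, where Tnfaip3 fell by 2.37 and Nfkbiz fell by 1.76. All genes had 14.5% higher and 11.7% lower after washout against control, and 16.6% and 12% against B/B 1 h. The list's medians were 0.13, 0.05 and 0.11 in the 3 comparisons.

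Of 11 genes for proteins that bind AU-rich or stem-loop elements of cytokine transcripts, 2 were higher and 1 lower at 1 h, 3 higher and 6 lower after washout against control, and 4 higher and 5 lower against B/B 1 h (limma). The shares over all genes were 1.01% and 1.88%, 14.5% and 11.7%, and 16.6% and 12%. Zfp36 read 10.91, 10.95 and 10.91 in control, 11.87, 12.06 and 11.95 at 1 h and 8.40, 8.37 and 8.15 after washout (log2). It rose by 1.04 ± 0.073 at 1 h, and after washout it fell by 2.62 ± 0.073 (log2 against control, SE; limma adjusted p 7.25e-05 and 2.93e-08). Zfp36l1, its paralog, rose by 0.41 at 1 h, and Zc3h12a, which encodes Regnase-1, fell by 1.03 below control after washout. Zfp36l2 fell by 0.21 at 1 h, a call that was lost without any 1 control or B/B 1 h array and with only 2 groups fitted (highest adjusted p 0.0946). After washout Zfp36l2 fell by 0.92. The medians were -0.04, -0.16 and -0.12.

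Among 16 genes for inducing cytokines and their receptors, 1 was higher and 1 lower at 1 h, and 6 were higher and 2 lower after washout against either group (limma). Over all genes, 1.01% were higher and 1.88% lower at 1 h. After washout the shares were 14.5% and 11.7% against control, and 16.6% and 12% against B/B 1 h. Il1r1, the interleukin-1 receptor, fell by 0.35 ± 0.058 at 1 h (limma adjusted p 0.0126), which was lost without control replicate 2 (0.0537) or 3 (0.0564). Between 1 h and washout Il1r1 rose by 0.64 (limma adjusted p 2.57e-05), and after washout it lay 0.29 above control (limma adjusted p 0.00374). Il17a was called higher at 1 h, at 0.34, but lay below the olfactory reference, and its call was lost without any 1 control array (0.0537 to 0.0746) and with only 2 groups fitted (0.0826). Tlr3, a sensor of double-stranded RNA, rose by 1.12 ± 0.083 after washout, and Ticam1, its adaptor, fell by 0.89 ± 0.075 (log2 against control, SE). Il1a, an alarmin, rose by 0.73 and also lay below the reference. The medians were -0.03, 0.03 and -0.01.

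**Figure D4:**
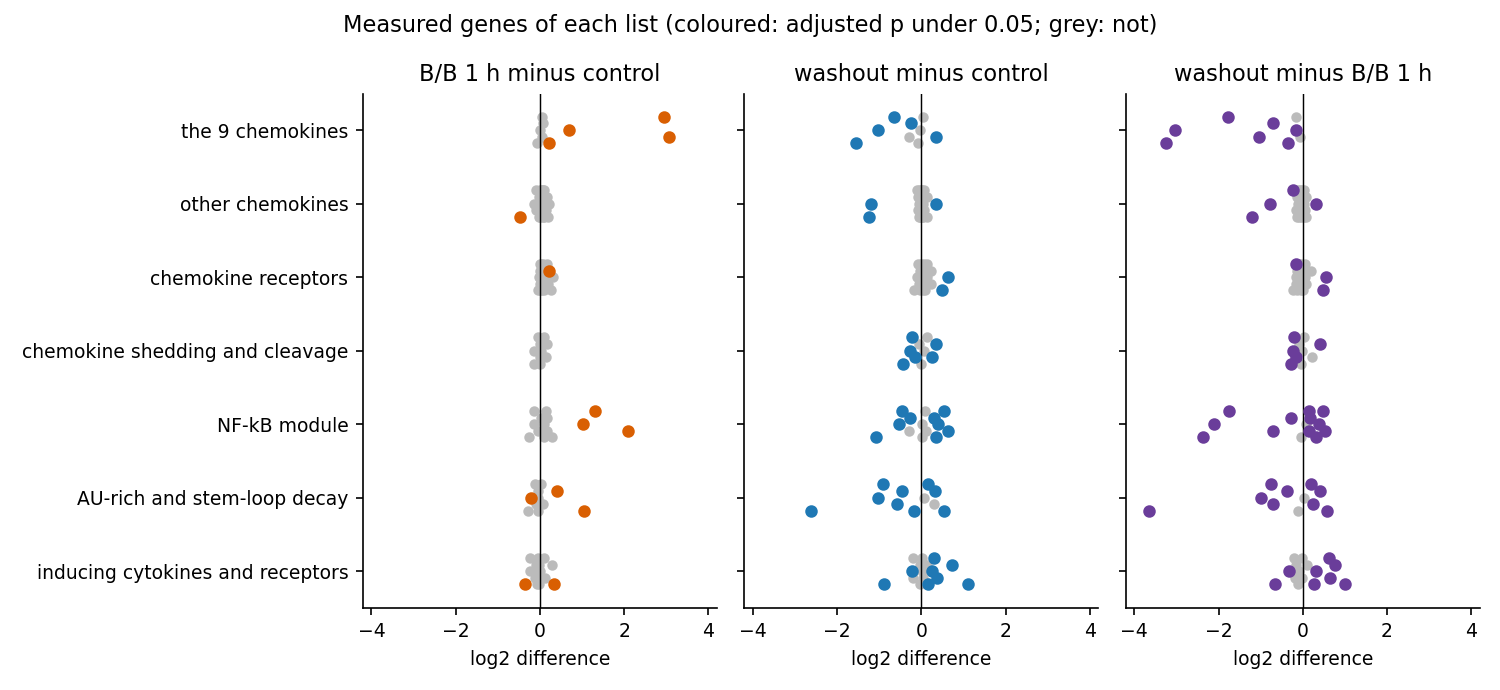
Log2 difference of every measured gene in the 9 chemokines and 6 related lists, for B/B 1 h minus control, washout minus control and washout minus B/B 1 h; coloured points have a limma adjusted p under 0.05, grey points do not, and vertical scatter within a row only separates points. At 1 h the points beyond 2 are Cxcl1, Cxcl10 and Tnfaip3, and the lowest point after washout is Zfp36.

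For chemokines whose group means span at least 1 log2 unit, the genes with the most similar profile over the 9 arrays were found by the root mean square distance between centred log2 values. Genes with symbols of the form Gm plus digits, or ending in Rik, were left out of this search. For Cxcl1, whose own spread by this measure was 1.47, the 3 nearest were Mir1938 at 0.16, Cxcl10 at 0.19 and Lsmem1 at 0.38. For Cxcl10, with a spread of 1.44, they were Cxcl1 at 0.19, Mir1938 at 0.24 and Lsmem1 at 0.30. Cxcl1 and Cxcl10 were thus among each other's nearest genes out of those searched. Mir1938, a microRNA gene, lies inside Ifrd1 in the annotation, and Lsmem1, which encodes a membrane protein, is the annotated gene next to Ifrd1. Ifrd1, a transcriptional co-regulator chosen after its value was seen, rose by 0.81 ± 0.045 at 1 h (log2, SE; limma adjusted p 1.19e-05). Whether the Mir1938 probe set reads Ifrd1 RNA was not tested.

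Cxcl5 (spread 0.50) had as nearest Vdr, the vitamin D receptor, at 0.10, the collagen chain gene Col1a2 at 0.10 and the transcription factor gene Mecom at 0.11. Col1a2 read 10.67 ± 0.061 in control, 10.63 ± 0.038 at 1 h and 9.69 ± 0.0059 after washout (log2, SD, n = 3). Ccl7 (spread 0.79) had Nr4a1, an immediate-early nuclear receptor, at 0.11, the lymphatic growth factor gene Vegfd at 0.11 and Pdgfrb, a growth factor receptor of fibroblasts, at 0.15. Nr4a1 went from 11.53 in control to 11.97 at 1 h and 10.03 after washout, so that its order of groups was that of Ccl7. These distances describe 9 arrays in 3 groups and were not tested.

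**Figure D5:**
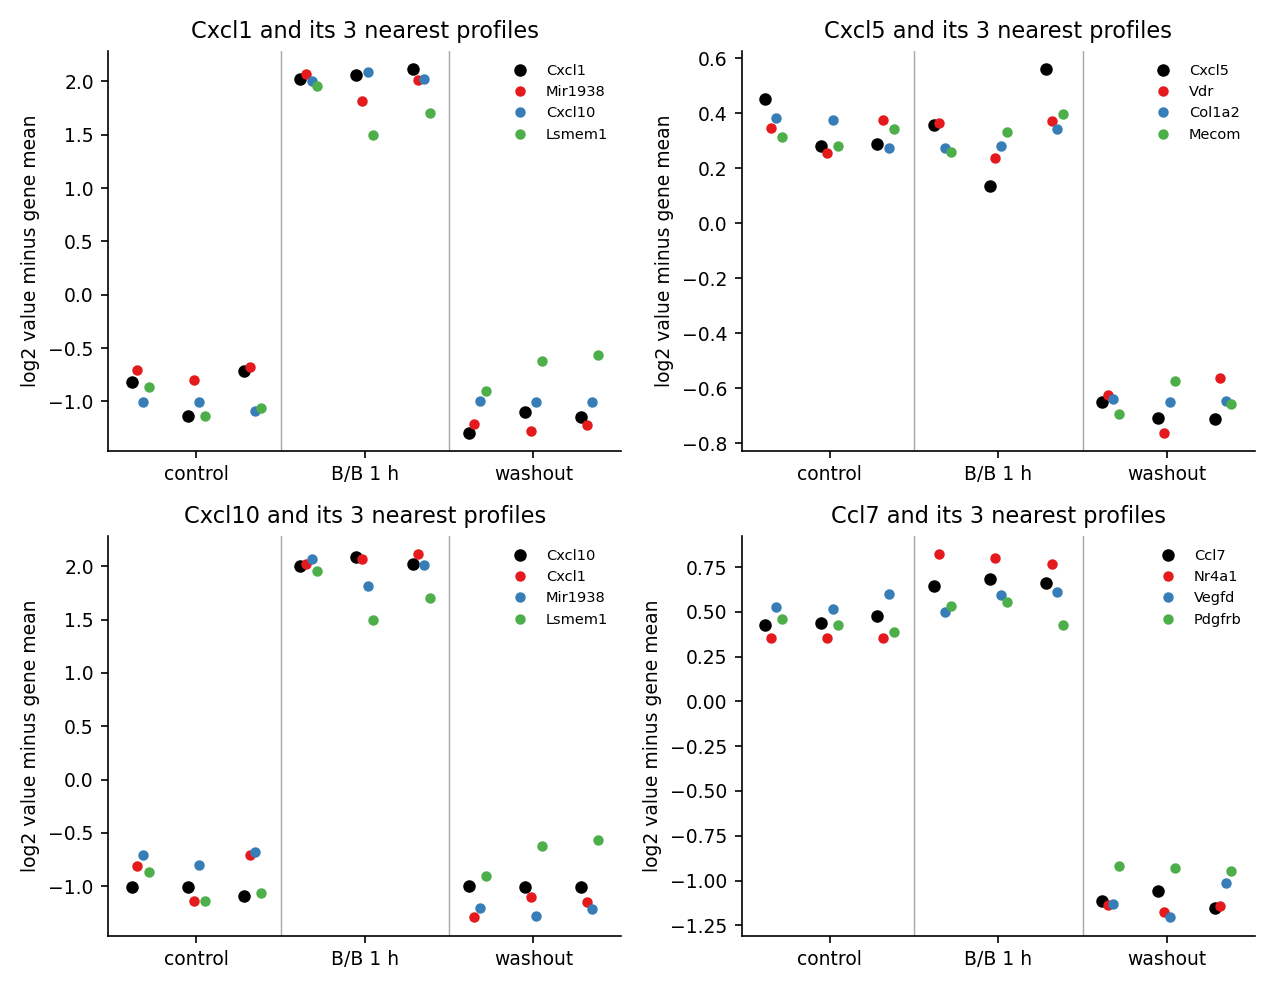
Log2 value minus the gene's mean on each of the 9 arrays, grouped as control, B/B 1 h and washout, for Cxcl1, Cxcl5, Cxcl10 and Ccl7 (black) and the 3 genes with the nearest profile (coloured); points of an array are set slightly apart, and panels have their own axes. Cxcl1 and Cxcl10 with their nearest genes are high in the B/B 1 h group alone, and Cxcl5 and Ccl7 with theirs are low in the washout group.

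Markers of other cells were read beside the chemokines, since leukocytes make several of them. Of 12 measured leukocyte markers, 6 lay above the olfactory reference, and their summed linear level was 658 to 690 in control, 888 to 943 at 1 h and 1049 to 1088 after washout. The pan-leukocyte gene Ptprc, the T cell gene Cd3e, the B cell gene Ms4a1 and the myeloid genes Itgam, Lyz2 and Adgre1 lay below the reference, with Ptprc at 3.39, 3.35 and 3.20 in the 3 groups. At 1 h, when Cxcl1 and Cxcl10 were high, 4 markers were higher and 0 lower (limma), where 1.01% of all genes were higher. These were Cd79a at 0.70, Cd14 at 0.61, Cd68 at 0.51 and Adgre1 at 0.30 (log2). After washout 1 was higher than control, Cd14 at 1.47, and 2 were lower, Lyz2 at -0.30 and Ptprc at -0.19. Over all genes 14.5% were higher and 11.7% lower after washout, which also stands beside the counts of the other markers below. Between 1 h and washout, when Cxcl1 and Cxcl10 fell, Cd68 fell by 0.59 and Cd79a fell by 0.49, while Cd14 rose by 0.86. The mean log2 level of the list was 4.83 to 4.84 in control, 4.98 to 5.04 at 1 h and 4.93 to 4.94 after washout. Of endothelial and epithelial markers, 4 of 11 and 5 of 11 lay above the reference. At 1 h 0 of either were called (limma), with 4 and 2 at an unadjusted p under 0.05. After washout against control 1 endothelial marker was higher, Cdh5 at 0.28, and 1 epithelial marker was lower, Cdh1 at -0.20 (log2, limma). Cdh5 was also higher after washout than at 1 h, by 0.54. Fibroblast markers had 0 higher and 0 lower at 1 h (limma; 6 at an unadjusted p under 0.05) and 2 higher and 7 lower after washout, when Ccl2, Ccl7 and Cxcl5 were also lower, and their summed linear level was 20249 to 20684, 20826 to 20887 and 18758 to 18864. The share of all genes at an unadjusted p under 0.05 is not given here. The part of these markers in the chemokine values was not tested.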

How the data were processed

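RNA of 9 samples, extracted with Trizol, was labelled with biotin and hybridised to 1-colour Affymetrix arrays, per the labels' protocols. The submitters' processing notes name Partek 6.6. How probes were summarised and normalised is not given in the sources used here. What the authors deposited are log2 values per probe set, with array medians over genes of 5.14 to 5.23, and they were used with no further normalization. Base 2 was inferred from the highest value, 13.2, and limits every fold given. No detection calls or scan times were used.

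A single gene symbol was attached to 23521 of the 41345 probe sets, while 1814 had several and 16010 had none. The probe set with the highest mean stood for its gene, which gave 22180 genes. Groups came from the treatment labels. All genes were fitted in R 4.3.3 with limma 3.58.1 (3 group means, 9 arrays, 6 residual degrees of freedom, prior 3.38), with Benjamini-Hochberg adjustment over all genes and a threshold of 0.05. The code was tested on simulated data. Genes named were the 9 chemokines, up to 3 called genes of each list and comparison with the largest difference, and the 3 nearest profiles. Members and lists were chosen with earlier results of these data known, and lists carry no test of their own. List genes with no 1-symbol probe set were not analysed here. Another gene list is not reported here. Promoter windows and gene order came from RefSeq tables on GRCm38.p6.

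Alternatives were quantile normalization, centred medians, the lowest 30% of genes left out, averaged probe sets, a variance trend, a robust prior, array weights (statmod 1.5.0), 2 groups only, a threshold of 0.01, and each array left out.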

Additional observations from a re-analysis of the deposited data

How the results depend on the processing

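The number of chemokines past the threshold in limma ran from 3 to 4 for B/B 1 h against control over all alternatives (4 reported), from 5 to 6 for washout against control (5 reported) and from 6 to 7 for washout against B/B 1 h (7 reported), and it was 7 for the F-test in every alternative run. Of 486 differences of single chemokines under the alternatives, 456 kept their direction and their side of the threshold. Another 13 lost a call (10 of Ccl7 at 1 h and 3 of Cx3cl1 between 1 h and washout, each including the threshold of 0.01), 4 gained one (Cxcl1 after washout), and 13 turned sign, all of them uncalled values near 0. The turned values at 1 h were, for Cxcl5, -0.039 with array medians centred, -0.012 with array weights, and -0.017, -0.013 and -0.092 without control replicate 2, control replicate 3 and B/B 1 h replicate 3 (-0.092 to 0.12 with 1 array left out). For Cxcl16 they were -0.0044 with quantile normalization, -0.0019 with medians centred and -0.020 without control replicate 1 (-0.020 to 0.13 with 1 array left out), for Cxcl12 -0.0039 without B/B 1 h replicate 1 (-0.0039 to 0.12), and for Ccl2 -0.0042 with medians centred. Cxcl16 after washout turned to 0.063 and 0.056 against control without control replicate 3 and washout replicate 1 (-0.095 to 0.063 with 1 array left out), and to 0.0067 against B/B 1 h without washout replicate 1 (-0.14 to 0.0067). The cause was not tested.

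Over all genes, the 642 calls at 1 h became 975 with medians centred, 1228 with a variance trend, 359 with only 2 groups fitted, 376, 372 or 323 when control replicate 1, 2 or 3 was left out, and 369 or 422 when B/B 1 h replicate 1 or 2 was. Of 805 alternative values of named list genes, 766 kept direction and side, 39 lost a call and 0 turned sign. No paired analysis was possible because the labels give no replicate numbers and those used here only name an array. Cxcl12 lay below the olfactory reference, so its differences rest on weak signal.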
